A study of Homo sapiens with 8 samples.

Results

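Respiratory complexes II to V carry electrons from succinate and ubiquinol to oxygen and use the resulting proton gradient to make ATP. The transcripts described here are those of their nuclear-encoded subunits, chosen by gene symbol: SDHA to SDHD for complex II, the UQCR genes and CYC1 for complex III, the COX4 to COX8 genes for complex IV, and the ATP5F1, ATP5M and ATP5P genes with ATP5IF1 for complex V. Of 51 such symbols among 19287 in the count files, 44 reached 10 counts in at least 2 of the 8 libraries and were kept. By complex these were 4 of 4 genes for complex II, 10 of 10 for complex III, 12 of 17 for complex IV and 18 of 20 for complex V. All 44 kept genes were among the 14559 genes tested. The 7 genes below the minimum were COX4I2, COX6A2, COX7A1, COX7B2, COX8C, ATP5MF-PTCD1 and ATP5MGL.

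Complex II, succinate dehydrogenase, is also an enzyme of the citric acid cycle, and all of its subunits are encoded in the nucleus. Complexes III, IV and V are built from subunits of both genomes, so their nuclear transcripts must be matched by mitochondrial ones, and the mitochondrial transcripts are not analysed here. Many of the nuclear genes share promoter elements for NRF1, for ETS family factors such as GABPA, and for YY1. Pluripotent stem cells are known for a strong reliance on glycolysis while they keep an active respiratory chain.

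The RNA libraries compare cells with and without knockdown of eIF2A, an initiation factor that can deliver initiator tRNA to the ribosome. Cells of H9, a line of human embryonic stem cells, carried an shRNA against eIF2A or a control shRNA. HEK293T, a line from human embryonic kidney, carried an siRNA against eIF2A or a control siRNA, and all of its libraries came from cells given sodium arsenite, an oxidative stressor. Each of the 4 groups had 2 libraries of polyadenylated RNA. The labels name no dose or time and do not say whether the shRNA cells were a pool or 1 clone. Nor do they state that the libraries stem from separate cultures, and p-values then reflect nothing more than the spread of these samples, possibly technical.

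Gene counts per library ranged from 21837052 to 32318668. EIF2A itself stood at 5.03 and 4.66 CPM (the gene's share of a library's gene counts in CPM units, scaled with TMM factors) in H9 eIF2A shRNA libraries, against 15.8 and 14.8 CPM in H9 control shRNA libraries. In HEK293T it stood at 5.57 and 5.98 CPM with eIF2A siRNA, against 17.5 and 18.3 CPM with control siRNA. EIF2A thus had a log2 fold change of -1.66 ± 0.11 in H9 (SE; adjusted p = 2.2e-15) and -1.63 ± 0.095 in HEK293T (SE; adjusted p = 6.3e-15). The 7 pluripotency markers summed to 4782 and 4849 CPM in H9 eIF2A shRNA libraries, against 5088 and 5125 CPM in H9 controls, a sum carried by LIN28A and DNMT3B. L1TD1 (148 and 142 CPM with eIF2A shRNA, against 73.7 and 70.6 CPM in controls), USP44 (74.5 and 72.6 CPM with eIF2A shRNA, against 30.4 and 30.5 CPM in controls) and SOX2 (114 and 118 CPM with eIF2A shRNA, against 86.5 and 80.6 CPM in controls) were higher with the knockdown. POU5F1 was lower, at 141 and 114 CPM with eIF2A shRNA, against 162 and 195 CPM in controls. LIN28A was also lower, at 2707 and 2796 CPM with eIF2A shRNA, against 2963 and 2977 CPM in controls. So was DNMT3B, at 1550 and 1556 CPM with eIF2A shRNA, against 1720 and 1720 CPM in controls. NANOG was at 48 and 50 CPM with eIF2A shRNA, against 52 and 50.7 CPM in controls. NANOG and L1TD1 were at 0 counts in every HEK293T library, which carried the kidney marker SIX2 at 125 to 143 CPM. Of the 3 other kidney markers, PAX2 and LHX1 were also higher in HEK293T than in H9, while PAX8 was at 0 to 0.0871 CPM in HEK293T and at 3.09 to 7.18 CPM in H9. Markers of other cell types also moved with the H9 knockdown: the 5 neural markers summed to 181 and 183 CPM with eIF2A shRNA, against 356 and 375 CPM in controls, mostly TUBB3. TUBB3 was at 164 and 165 CPM with eIF2A shRNA, against 344 and 360 CPM in controls, and SOX1 was lower too. NEFL was higher, at 11.7 and 12.6 CPM with eIF2A shRNA, against 6.85 and 7.85 CPM in controls. DCX was also higher, at 2.67 and 1.78 CPM with eIF2A shRNA, against 0.606 and 0.938 CPM in controls. PAX6 was below 1 CPM in H9. The 6 fibroblast markers summed to 878 and 890 CPM with eIF2A shRNA, against 1007 and 1013 CPM in controls, mostly THY1 (592 and 594 CPM with eIF2A shRNA, against 788 and 794 CPM in controls). COL1A1 (118 and 123 CPM with eIF2A shRNA, against 88.7 and 87.7 CPM in controls) and COL1A2 (132 and 138 CPM with eIF2A shRNA, against 96.1 and 97.8 CPM in controls) were higher with the knockdown, and COL3A1 and POSTN were below 1 CPM in H9. Reads without a counted feature made up 20.84 and 20.63% in H9 eIF2A shRNA libraries, against 18.84 and 18.39% in H9 controls. The part of the markers and of these reads in the results below was not tested.

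Promoter sequences of the subunit genes are described first, and any part of their motifs in the knockdown results was not tested. RefSeq promoter windows (GRCh38.p14, 250 bases before to 50 after a start) were found for 35 of the 44 kept genes. The NRF1 motif GCGCATGC was held, on either strand, by 8 of the 35 genes (22.9%), against 3.68% of all 27305 genes with a window. These 27305 genes were not limited to the 14559 genes tested. The ETS motif CCGGAAG was held by 16 of the 35 (45.7%), against 12.2% of all genes with a window, and the YY1 motif AAGATGGC by 5 of the 35 (14.3%), against 3.52%. A gene counts as a holder if any of its windows holds the motif; of all 35116 single windows, 3.05% held the NRF1, 10.3% the ETS and 2.89% the YY1 motif. The NRF1 letters and their reverse complement can overlap, as they do before SDHD, while no match of one motif overlaps a match of another in the stretches shown. A match is a description of the sequence, not a binding site. Stretches of 6 of the 8 genes that hold the NRF1 motif are shown, since this motif had the highest ratio of its share among the subunit genes to its share among all genes; ATP5F1C and ATP5ME also hold it and are not printed. They lie upstream of the start, run 5′ to 3′ on the gene's strand and have the motif letters in capitals. SDHB is at chr1:17054144-17054242 (minus strand), SDHD at chr11:112086753-112086812 (plus), COX5B at chr2:97645916-97646041 (plus) and COX6A1 at chr12:120437885-120438112 (plus). ATP5PF is at chr21:25735068-25735184 (minus), and ATP5MC2 has matches before 2 separate starts, at chr12:53676106-53676133 and chr12:53676371-53676398 (both minus).
SDHB: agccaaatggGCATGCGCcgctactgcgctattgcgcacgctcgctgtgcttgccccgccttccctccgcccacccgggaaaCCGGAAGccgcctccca
SDHD: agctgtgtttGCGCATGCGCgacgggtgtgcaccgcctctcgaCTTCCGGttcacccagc
COX5B: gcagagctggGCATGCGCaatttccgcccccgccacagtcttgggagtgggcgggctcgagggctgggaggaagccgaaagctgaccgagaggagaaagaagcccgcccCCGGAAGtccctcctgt
COX6A1: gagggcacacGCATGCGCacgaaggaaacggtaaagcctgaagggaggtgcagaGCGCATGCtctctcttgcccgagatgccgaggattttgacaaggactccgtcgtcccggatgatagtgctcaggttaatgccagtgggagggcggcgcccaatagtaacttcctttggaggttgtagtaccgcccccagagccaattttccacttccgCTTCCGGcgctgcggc
ATP5PF: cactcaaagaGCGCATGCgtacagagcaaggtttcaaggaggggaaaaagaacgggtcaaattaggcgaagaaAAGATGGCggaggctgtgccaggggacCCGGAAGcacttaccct
ATP5MC2, first start: cccgggtcacGCATGCGCtgagccttcc
ATP5MC2, second start: tgtgacgactGCGCATGCtcggaaaggg
SDHB and COX5B each hold an NRF1 match upstream of an ETS match, SDHD holds overlapping NRF1 matches on both strands before an ETS match, and ATP5PF holds all 3 motifs in the order NRF1, YY1, ETS. The window of SDHB holds all 3 motifs as well, with its YY1 match after the start and outside the stretch shown.

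In H9, most subunit transcripts of complexes II to V were lower with eIF2A shRNA than with control shRNA. Of the 44 kept genes, 38 fell and 2 rose at an adjusted p under 0.05 (edgeR's quasi-likelihood test, Benjamini-Hochberg adjustment over all genes tested), where 34.3% of all genes tested fell and 37% rose. The genes that rose were SDHD and UQCRC2, and those that passed in neither direction were UQCRB, UQCRHL, COX6B2 and ATP5PB. The median log2 fold change was -0.51 over the 44 genes and 0.02 over all genes tested. With DESeq2's size factors these medians were -0.67 over the 44 genes and -0.13 over all genes, and with upper-quartile scaling -0.44 over the 44 genes and 0.09 over all genes. Both knockdown libraries lay below both control libraries for 40 of the 44 genes, against 41% of all genes tested.

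Summed over the 44 genes, the level was 8701 and 8805 CPM in H9 eIF2A shRNA libraries, against 12182 and 12367 CPM in H9 controls, a change of the mean of -28.7%. Complex II summed to 334 and 337 CPM with eIF2A shRNA, against 399 and 396 CPM in controls. Complex III summed to 1483 and 1508 CPM with eIF2A shRNA, against 2130 and 2169 CPM in controls. The groups did not overlap for either complex, and the mean differed by -15.6% for complex II and by -30.4% for complex III. For complex IV the sums were 2200 and 2248 CPM with eIF2A shRNA, against 3294 and 3341 CPM in controls, a difference of the mean of -33%. For complex V they were 4684 and 4712 CPM with eIF2A shRNA, against 6359 and 6462 CPM in controls, a difference of the mean of -26.7%. CPM is a share of each library, and in bulk RNA a change in the share of cells that carry a transcript and a change in its amount per cell cannot be told apart.

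Across all genes, the H9 fold change also followed the GC content and length of the transcript: over 14473 genes, Spearman's rho was -0.68 for GC content and 0.43 for length. With these trends removed, 27 of the 44 genes fell and 7 rose, where 25.7% of all genes tested fell and 24.2% rose, and the median was -0.24. When GC content and length were also allowed to interact, again 27 fell and 2 rose, where 23.8% of all genes fell and 23.5% rose, and the median was -0.16. A total of 23 genes fell in all 3 fits, and SDHD rose in all 3. The values of single genes under each fit are given with the complexes.

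**Figure D1:**
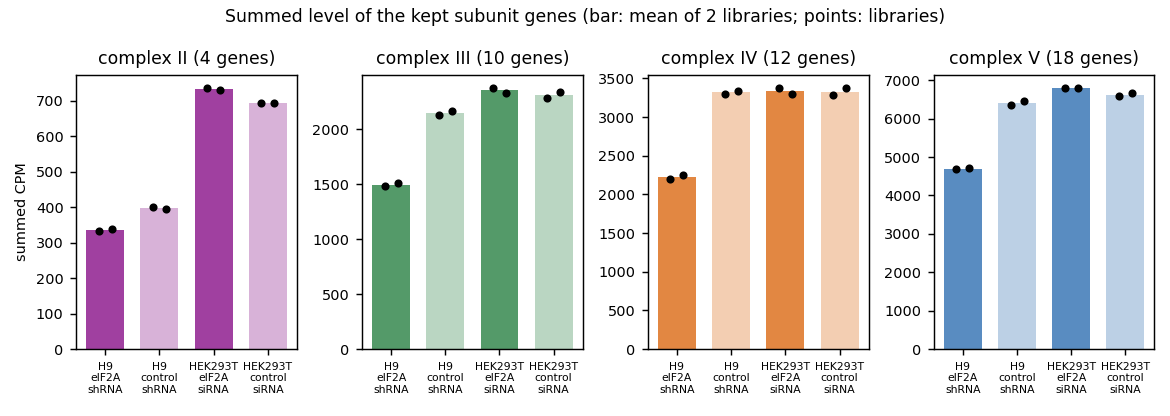
Summed level (CPM, linear axis from 0) of the kept subunit genes of each complex in each of the 4 groups. Bars are means of 2 libraries and points are the libraries; in every complex both H9 eIF2A shRNA libraries lie below both H9 controls, while the HEK293T groups differ by at most 5.7% in their means.

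HEK293T cells under arsenite showed no such common fall. With eIF2A siRNA, 12 of the 44 genes rose and 6 fell, where 14.1% of all genes tested rose and 14.7% fell, and the median log2 fold change was 0.03. The summed level was 13281 and 13172 CPM with eIF2A siRNA, against 12845 and 13077 CPM with control siRNA. The genes that rose were SDHD, UQCRH, COX6B1, COX6C, COX7A2L, COX7C, ATP5F1A, ATP5MG and the 4 peripheral stalk genes ATP5PB, ATP5PD, ATP5PF and ATP5PO. Those that fell were SDHA, UQCRC1, UQCRQ, COX6A1, ATP5F1C and ATP5MC1. With the GC and length trends removed, 5 rose and 12 fell, where 14% of all genes tested rose and 13.5% fell. In all 3 fits 4 genes rose (UQCRH, COX6C, ATP5PD and ATP5PO) and 5 fell (UQCRC1, UQCRQ, COX6A1, ATP5F1C and ATP5MC1). The HEK293T controls differed more from each other than the libraries of other groups did, with a chi-square per degree of freedom of 4.91, against 1.35 to 1.8 in the other groups: without the second control library 20 genes rose, without the first 10 fell, and without the second eIF2A siRNA library 2 fell.

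**Figure D2:**
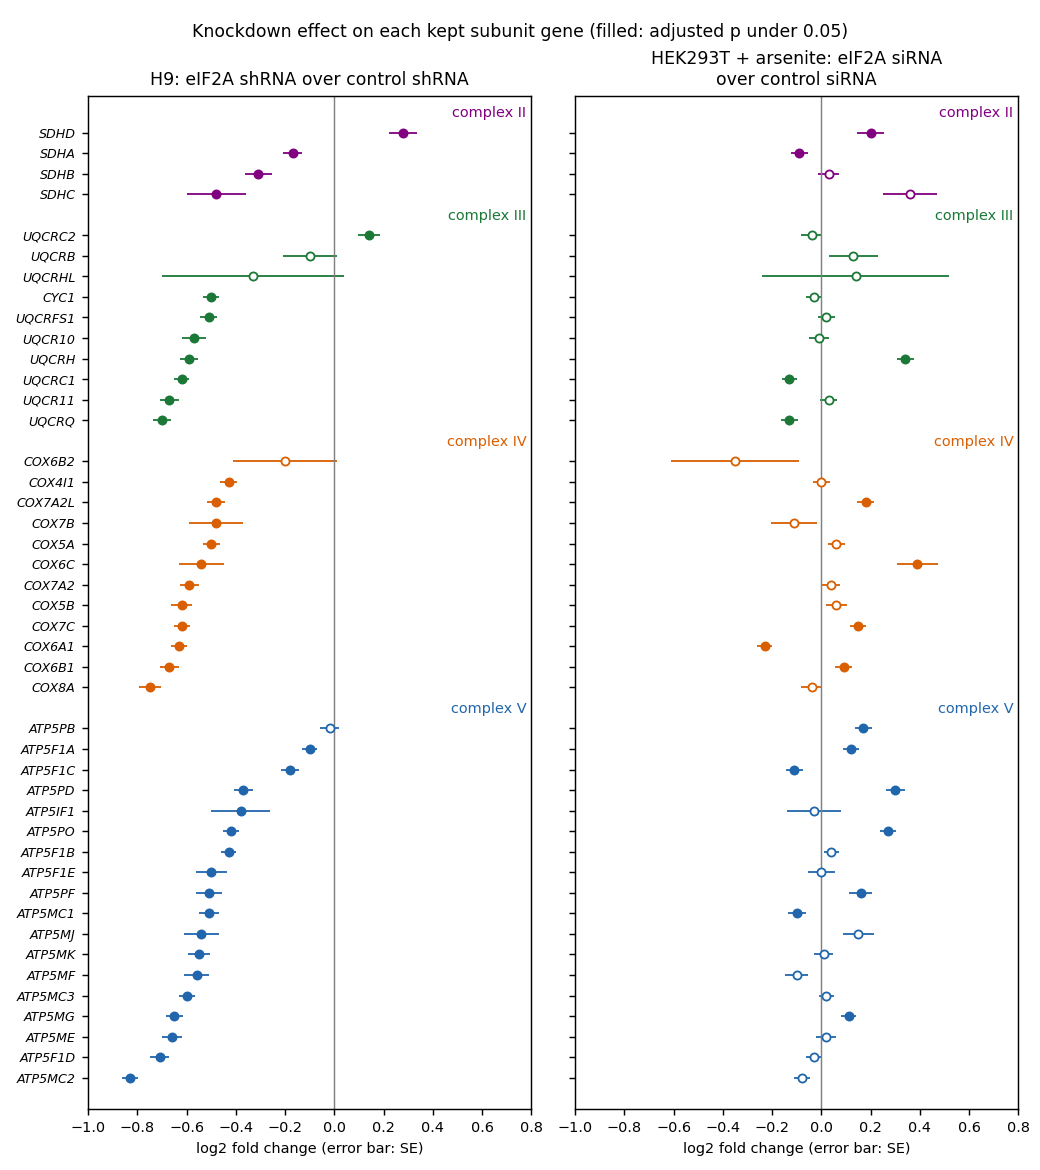
Log2 fold change with its standard error (horizontal axis) of each kept gene, by complex and ordered by the H9 value, for H9 eIF2A shRNA over control shRNA and for HEK293T eIF2A siRNA over control siRNA. Filled points passed an adjusted p under 0.05; in H9 nearly all points lie left of 0, from -0.83 for ATP5MC2 to 0.28 for SDHD, while the HEK293T points lie on both sides.

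Within complex II, SDHA, SDHB and SDHC fell in H9 and SDHD rose. SDHA, the flavoprotein that oxidises succinate, stood at 113 and 115 CPM in H9 eIF2A shRNA libraries, against 132 and 125 CPM in H9 controls. SDHB, the iron-sulfur subunit that passes the electrons on, stood at 58.4 and 62.3 CPM with eIF2A shRNA, against 75.1 and 73.9 CPM in controls. For both genes the knockdown libraries lay under the controls without overlap. Their log2 fold changes were -0.17 ± 0.039 (SE; adjusted p = 1.5e-04) for SDHA and -0.31 ± 0.055 (SE; adjusted p = 1.5e-05) for SDHB. SDHC, a membrane anchor that helps to hold heme and ubiquinone, stood at 107 and 110 CPM with eIF2A shRNA, against 148 and 154 CPM in controls, a log2 fold change of -0.48 ± 0.12 (SE; adjusted p = 0.015). SDHD, the other membrane anchor, went the other way, at 55.6 and 49.7 CPM with eIF2A shRNA, against 44.0 and 42.9 CPM in controls. Its log2 fold change was 0.28 ± 0.057 (SE; adjusted p = 5.8e-05), and it no longer passed with DESeq2's size factors (0.12). With the trends removed, SDHB remained lower (-0.26, and -0.18 with interaction) and SDHD higher (0.39 and 0.52), while SDHA (0.10 and 0.08) and SDHC (0.01 and 0.10) lay above 0. SDHA passed as higher in the first of these fits only. The values of SDHC in these fits rest on a length of 460 nt, while the transcript linked to its RefSeq entry has 13566 nt.

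In HEK293T, SDHD was also higher with the knockdown, at 50.5 and 48.6 CPM with eIF2A siRNA, against 44.6 and 41.7 CPM with control siRNA (log2 fold change 0.20 ± 0.055 SE, adjusted p = 0.004). It was thus the single kept gene that rose in both lines, although the HEK293T call was lost with the trends removed (0.11), without the first eIF2A siRNA library (0.18) and without the second control (0.15). SDHD overlaps TIMM8B on the opposite strand, and the strand setting of the counting is not given in the sources used here. SDHA stood at 240 and 237 CPM with eIF2A siRNA, against 249 and 258 CPM with control siRNA. Its log2 fold change was -0.09 ± 0.034 (SE; adjusted p = 0.041), and of the 8 fits that leave out 1 library it passed only without the first HEK293T control, with values from -0.0647 to -0.1124. SDHC was split by its controls, at 197 and 201 CPM with eIF2A siRNA, against 174 and 138 CPM with control siRNA, and did not pass (0.36 ± 0.11 SE, adjusted p = 0.064), although it passed without either control (0.53 without the first and 0.20 without the second). SDHB, at 249 and 244 CPM with eIF2A siRNA, against 226 and 256 CPM with control siRNA, overlapped between the groups (0.03 ± 0.042 SE, adjusted p = 0.7).

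**Figure D3:**
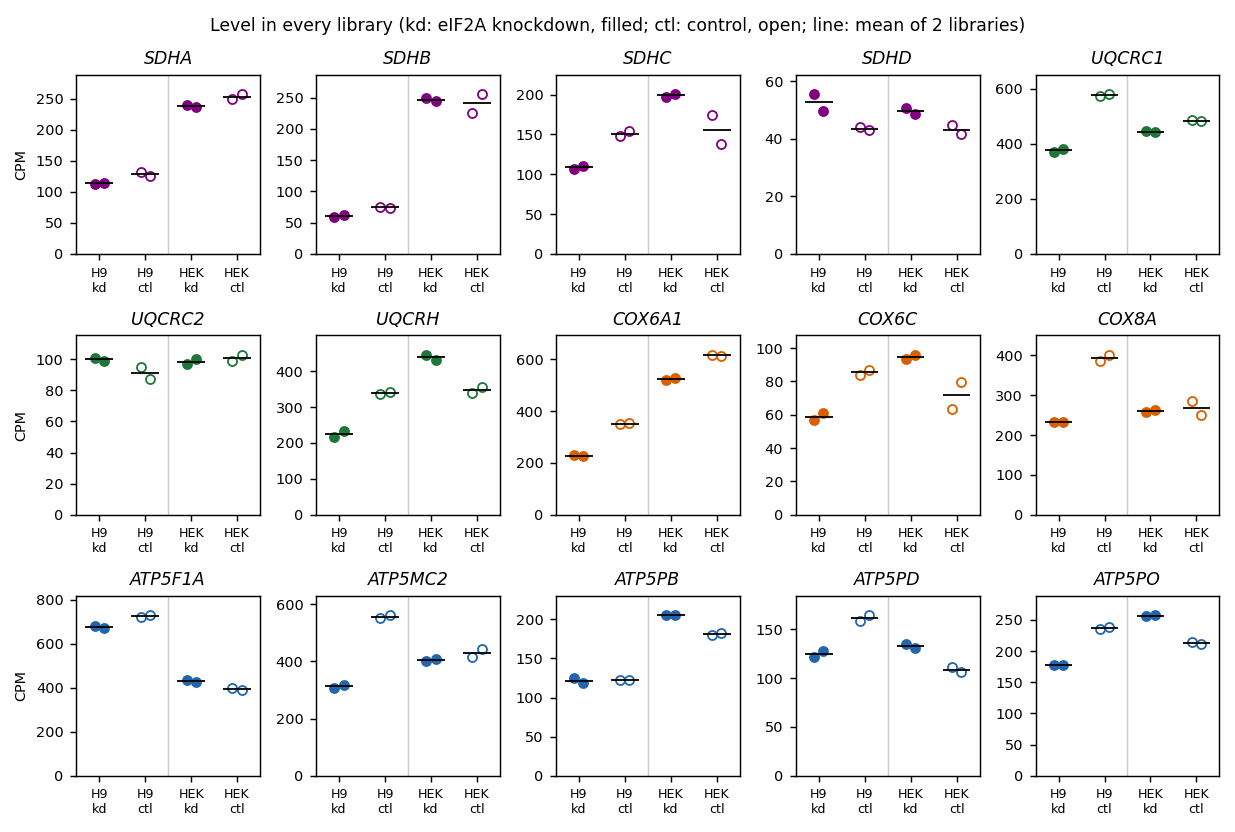
CPM (linear axes from 0) of 15 subunit genes in every library, eIF2A knockdown (filled) left of control (open) for H9 and for HEK293T under arsenite. SDHD lies higher with knockdown in both lines, UQCRH, COX6C, ATP5PD and ATP5PO lie lower in H9 and higher in HEK293T, and ATP5PB overlaps in H9.

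In complex III, 7 of 10 genes fell and 1 rose in H9, with a median log2 fold change of -0.54. The electron-carrying and core subunits were CYC1, which is cytochrome c1, UQCRFS1, the Rieske iron-sulfur protein, and the core proteins UQCRC1 and UQCRC2. UQCRC1 stood at 371 and 380 CPM with eIF2A shRNA, against 572 and 581 CPM in controls, a log2 fold change of -0.62 ± 0.031 (SE; adjusted p = 1.3e-18). Its partner UQCRC2 differed: it stood at 101 and 99.2 CPM with eIF2A shRNA, against 95 and 87.1 CPM in controls. The rise of UQCRC2 was small, at 0.14 ± 0.045 (SE; adjusted p = 0.0064), and the value was below 0 with the trends removed (-0.13, and -0.03 with interaction) and with DESeq2's size factors (-0.02). It also no longer passed without the first H9 eIF2A shRNA library (0.12) or the second H9 control (0.08). CYC1 stood at 270 and 265 CPM with eIF2A shRNA, against 370 and 385 CPM in controls (log2 fold change -0.50 ± 0.033 SE, adjusted p = 2.3e-15), and its value with interaction of the trends was -0.02. UQCRFS1 stood at 156 and 150 CPM with eIF2A shRNA, against 216 and 219 CPM in controls (-0.51 ± 0.035 SE, adjusted p = 6.0e-15). All 4 libraries of UQCRC1, CYC1 and UQCRFS1 separated by group.

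The small supernumerary subunits of complex III held its largest falls in H9. UQCRQ, which binds at the ubiquinone side of cytochrome b, stood at 96.9 and 103 CPM with eIF2A shRNA, against 162 and 161 CPM in controls, a log2 fold change of -0.70 ± 0.038 (SE; adjusted p = 1.4e-17). UQCR11 stood at 102 and 107 CPM with eIF2A shRNA, against 164 and 168 CPM in controls (-0.67 ± 0.039 SE, adjusted p = 7.9e-17). Both were smaller with the trends removed, UQCRQ at -0.09 and -0.15 and UQCR11 at 0.02 and -0.15. UQCRH, the hinge protein that contacts cytochrome c1, stood at 217 and 232 CPM with eIF2A shRNA, against 336 and 342 CPM in controls (-0.59 ± 0.036 SE, adjusted p = 1.5e-16). UQCR10 fell too (-0.57 ± 0.048 SE, adjusted p = 9.9e-12), while UQCRB, at 81.0 and 81.5 CPM with eIF2A shRNA, against 87.0 and 87.2 CPM in controls, did not pass (-0.10 ± 0.11 SE, adjusted p = 0.46). UQCRHL, a near copy of UQCRH, had 19 and 15 counts with eIF2A shRNA, against 17 and 19 counts in controls, and its counts are uncertain because reads that align to several places were set aside.

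UQCRH was the complex III gene that rose in HEK293T. It stood at 446 and 432 CPM with eIF2A siRNA, against 338 and 356 CPM with control siRNA, a log2 fold change of 0.34 ± 0.034 (SE; adjusted p = 1.7e-09), and remained higher with the trends removed (0.23 and 0.21). UQCRC1 and UQCRQ fell in HEK293T as they did in H9, but by less. UQCRC1 stood at 445 and 441 CPM with eIF2A siRNA, against 486 and 482 CPM with control siRNA (-0.13 ± 0.03 SE, adjusted p = 0.0013). UQCRQ stood at 198 and 196 CPM with eIF2A siRNA, against 214 and 217 CPM with control siRNA (-0.13 ± 0.034 SE, adjusted p = 0.0044).

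In complex IV, cytochrome c oxidase, 11 of 12 genes fell and none rose in H9, with a median log2 fold change of -0.56. These subunits surround the catalytic core, which the mitochondrial genome encodes. COX8A, a small single-pass membrane subunit, stood at 234 and 234 CPM with eIF2A shRNA, against 387 and 402 CPM in controls, a log2 fold change of -0.75 ± 0.045 (SE; adjusted p = 3.3e-12). COX6B1, which faces the intermembrane space near the cytochrome c site, stood at 185 and 196 CPM with eIF2A shRNA, against 296 and 310 CPM in controls (-0.67 ± 0.037 SE, adjusted p = 2.0e-17). COX6A1, the broadly expressed COX6A isoform, stood at 229 and 227 CPM with eIF2A shRNA, against 349 and 355 CPM in controls (-0.63 ± 0.032 SE, adjusted p = 2.2e-18). These transcripts, with a GC content of 53.5 to 58.6%, lay nearer to 0 with the trends removed: COX8A was at 0.08 and -0.16, COX6B1 at 0.06 and -0.10, and COX6A1 at 0.01 and -0.07.

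Complex IV transcripts with a GC content under 45% also passed as lower with the trends removed. COX7C stood at 339 and 346 CPM with eIF2A shRNA, against 530 and 525 CPM in controls (-0.62 ± 0.032 SE, adjusted p = 3.2e-18), and was at -0.92 and -0.54 with the trends removed. COX7A2L, a COX7A-related protein that joins complexes III and IV into supercomplexes, stood at 165 and 171 CPM with eIF2A shRNA, against 231 and 238 CPM in controls. Its log2 fold change was -0.48 ± 0.036 (SE; adjusted p = 5.6e-14) and lay at -0.85 and -0.64 with the trends removed. COX6C stood at 56.9 and 61.0 CPM with eIF2A shRNA, against 83.9 and 87.0 CPM in controls (-0.54 ± 0.09 SE, adjusted p = 3.6e-04), and was at -0.68 and -0.32. COX7A2 (-0.59 ± 0.039 SE, adjusted p = 1.3e-15) and COX7B (-0.48 ± 0.11 SE, adjusted p = 0.011) fell in all 3 fits as well. So did COX5B (-0.62 ± 0.043 SE, adjusted p = 3.7e-13), although its GC content is higher, at 52%. COX4I1 (-0.43 ± 0.033 SE, adjusted p = 1.2e-13) and COX5A (-0.50 ± 0.035 SE, adjusted p = 1.3e-14), whose products contact each other in the enzyme, were at 0.04 and 0.02 once the trends with interaction were removed.

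In HEK293T, 4 complex IV genes rose and 1 fell. COX6C stood at 93.4 and 96.1 CPM with eIF2A siRNA, against 63.7 and 79.7 CPM with control siRNA, a log2 fold change of 0.39 ± 0.083 (SE; adjusted p = 0.0057). COX7A2L stood at 230 and 219 CPM with eIF2A siRNA, against 196 and 201 CPM with control siRNA (0.18 ± 0.035 SE, adjusted p = 1.6e-04). COX7C stood at 419 and 421 CPM with eIF2A siRNA, against 389 and 369 CPM with control siRNA (0.15 ± 0.032 SE, adjusted p = 4.4e-04). COX6C remained higher with the trends removed (0.27 and 0.22), while COX7A2L (0.08 and 0.03) and COX7C (0.05 and -0.03) no longer passed. COX6A1 was the gene that fell, at 522 and 528 CPM with eIF2A siRNA, against 618 and 612 CPM with control siRNA (-0.23 ± 0.03 SE, adjusted p = 3.0e-07), and it was at -0.29 and -0.26 with the trends removed. COX6C has 17 annotated pseudogenes named after it, the most of any kept gene, so its count is less certain than the others.

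Tissue-specific isoforms of complex IV were at or near 0. COX7B2 had 0 counts in all 8 libraries, where a count of 0 allows up to 3 counts. COX4I2, known from lung, and COX6A2, known from heart and skeletal muscle, had at most 3 and 2 counts in a library. COX8C had at most 1 count, and COX7A1, the muscle isoform of COX7A, had 2 to 5. COX6B2, known from testis, was the exception, with 79 and 53 counts in H9 eIF2A shRNA libraries, against 57 and 71 in H9 controls, and 41 and 30 in HEK293T eIF2A siRNA libraries, against 38 and 47 in HEK293T controls. It passed in neither line (-0.20 ± 0.21 SE, adjusted p = 0.38 in H9; -0.35 ± 0.26 SE, adjusted p = 0.35 in HEK293T). The germ cell marker list summed to under 1 CPM in every library, and the muscle and heart list to at most 18.8 CPM.

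In complex V, ATP synthase, 17 of 18 genes fell and none rose in H9, with a median log2 fold change of -0.51. The c-ring genes ATP5MC1, ATP5MC2 and ATP5MC3 encode the same mature protein with different import sequences, and all 3 fell. ATP5MC2 had the largest fall of all 44 genes, at 307 and 319 CPM with eIF2A shRNA, against 553 and 561 CPM in controls. Its log2 fold change was -0.83 ± 0.034 (SE; adjusted p = 8.2e-21), and the level fell by 43.8%. It was at -0.19 and -0.34 with the trends removed. ATP5MC3 stood at 316 and 325 CPM with eIF2A shRNA, against 485 and 488 CPM in controls (-0.60 ± 0.032 SE, adjusted p = 8.0e-18), and was at -0.52 and -0.38. ATP5MC1 stood at 115 and 110 CPM with eIF2A shRNA, against 161 and 159 CPM in controls (-0.51 ± 0.04 SE, adjusted p = 1.4e-13), but lay at 0.17 and 0.07 with the trends removed. The c-ring genes thus fell together as measured and parted with the trends of all genes removed. Among the 44 genes, Spearman's rho of the H9 fold change with GC content was -0.38 as measured. It was 0.83 with the trends removed and 0.57 with interaction. Whether the parting lies in the genes or in the fits was not tested.

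All 5 subunits of the catalytic F1 head fell in H9, to different extents. ATP5F1D, the delta subunit, stood at 105 and 97.4 CPM with eIF2A shRNA, against 166 and 164 CPM in controls (-0.71 ± 0.038 SE, adjusted p = 1.1e-17). It is the most GC-rich of the 44 transcripts, at 69.3% GC, and was at 0.07 and -0.14 with the trends removed. ATP5F1B, the catalytic beta subunit, stood at 1637 and 1617 CPM with eIF2A shRNA, against 2174 and 2214 CPM in controls (-0.43 ± 0.03 SE, adjusted p = 9.9e-15), and kept its fall at -0.31 and -0.32. ATP5F1A, the alpha subunit, stood at 680 and 674 CPM with eIF2A shRNA, against 723 and 729 CPM in controls. The alpha subunit's fall was small as measured (-0.10 ± 0.03 SE, adjusted p = 0.0029) and larger with the trends removed (-0.36 and -0.35), as was that of the gamma subunit ATP5F1C (-0.18 as measured, -0.57 and -0.36). ATP5F1E, the epsilon subunit, fell by 0.50 ± 0.064 on the log2 scale (SE; adjusted p = 2.8e-06). Its values of -1.19 and -1.13 with the trends removed, like those of UQCRFS1 (-1.14 and -1.18), rest on annotated lengths of 1878 and 3475 nt that need not be the transcripts these cells make.

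The peripheral stalk, which keeps the head from turning with the rotor, gave different values in the 2 lines. ATP5PB stood at 125 and 118 CPM in H9 eIF2A shRNA libraries, against 122 and 123 CPM in H9 controls, and did not pass (-0.02 ± 0.039 SE, adjusted p = 0.73). ATP5PD stood at 122 and 128 CPM with eIF2A shRNA, against 158 and 164 CPM in controls (-0.37 ± 0.039 SE, adjusted p = 3.1e-10). ATP5PO, the oligomycin sensitivity protein, stood at 178 and 178 CPM with eIF2A shRNA, against 236 and 239 CPM in controls (-0.42 ± 0.034 SE, adjusted p = 3.5e-13). ATP5PF, whose promoter, like that of SDHB, holds all 3 motifs, stood at 66.7 and 71.1 CPM with eIF2A shRNA, against 98.1 and 97.9 CPM in controls (-0.51 ± 0.054 SE, adjusted p = 6.7e-09). Apart from ATP5PB, the libraries of these genes separated by group in H9. ATP5PB passed as lower with the trends removed (-0.49 and -0.45), and ATP5PD lay at -0.38 and -0.05, the second of which did not pass.

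In HEK293T all 4 stalk genes rose. ATP5PD stood at 135 and 131 CPM with eIF2A siRNA, against 111 and 106 CPM with control siRNA (0.30 ± 0.039 SE, adjusted p = 2.3e-07). ATP5PO stood at 256 and 257 CPM with eIF2A siRNA, against 215 and 211 CPM with control siRNA (0.27 ± 0.032 SE, adjusted p = 5.8e-08). ATP5PB stood at 205 and 205 CPM with eIF2A siRNA, against 180 and 183 CPM with control siRNA (0.17 ± 0.035 SE, adjusted p = 2.3e-04), and ATP5PF rose by 0.16 ± 0.046 on the log2 scale (SE; adjusted p = 0.008). ATP5PD and ATP5PO remained higher in all 3 fits, ATP5PB lay at 0.09 and 0.08 with the trends removed, the second of which did not pass, and ATP5PF (0.04 and -0.00) no longer passed. ATP5F1A rose in HEK293T by 0.12 ± 0.031 on the log2 scale (SE; adjusted p = 0.0019) but did not pass with the trends removed (0.06 and 0.05), while ATP5F1C and ATP5MC1 fell. ATP5F1C stood at 290 and 278 CPM with eIF2A siRNA, against 300 and 314 CPM with control siRNA (-0.11 ± 0.034 SE, adjusted p = 0.01). ATP5MC1 stood at 214 and 203 CPM with eIF2A siRNA, against 230 and 218 CPM with control siRNA (-0.10 ± 0.036 SE, adjusted p = 0.031).

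The 5 small membrane subunits of ATP synthase, which shape its dimers in the inner membrane, all fell in H9 within a narrow range of -0.54 to -0.66. ATP5ME, subunit e, stood at 135 and 140 CPM with eIF2A shRNA, against 218 and 217 CPM in controls (-0.66 ± 0.041 SE, adjusted p = 7.6e-16). ATP5MG, subunit g, stood at 200 and 207 CPM with eIF2A shRNA, against 313 and 324 CPM in controls (-0.65 ± 0.034 SE, adjusted p = 3.2e-18). Their paths parted with the trends removed, ATP5ME to 0.22 and 0.01 and ATP5MG to -0.74 and -0.46. ATP5MF, subunit f, turned to 0.22 and 0.16, and its exons overlap those of PTCD1 on the same strand. ATP5IF1, which blocks ATP hydrolysis by the reversed enzyme, stood at 102 and 106 CPM with eIF2A shRNA, against 130 and 141 CPM in controls. It passed narrowly (-0.38 ± 0.12 SE, adjusted p = 0.044) and lay at 0.04 and 0.12 with the trends removed.

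**Figure D4:**
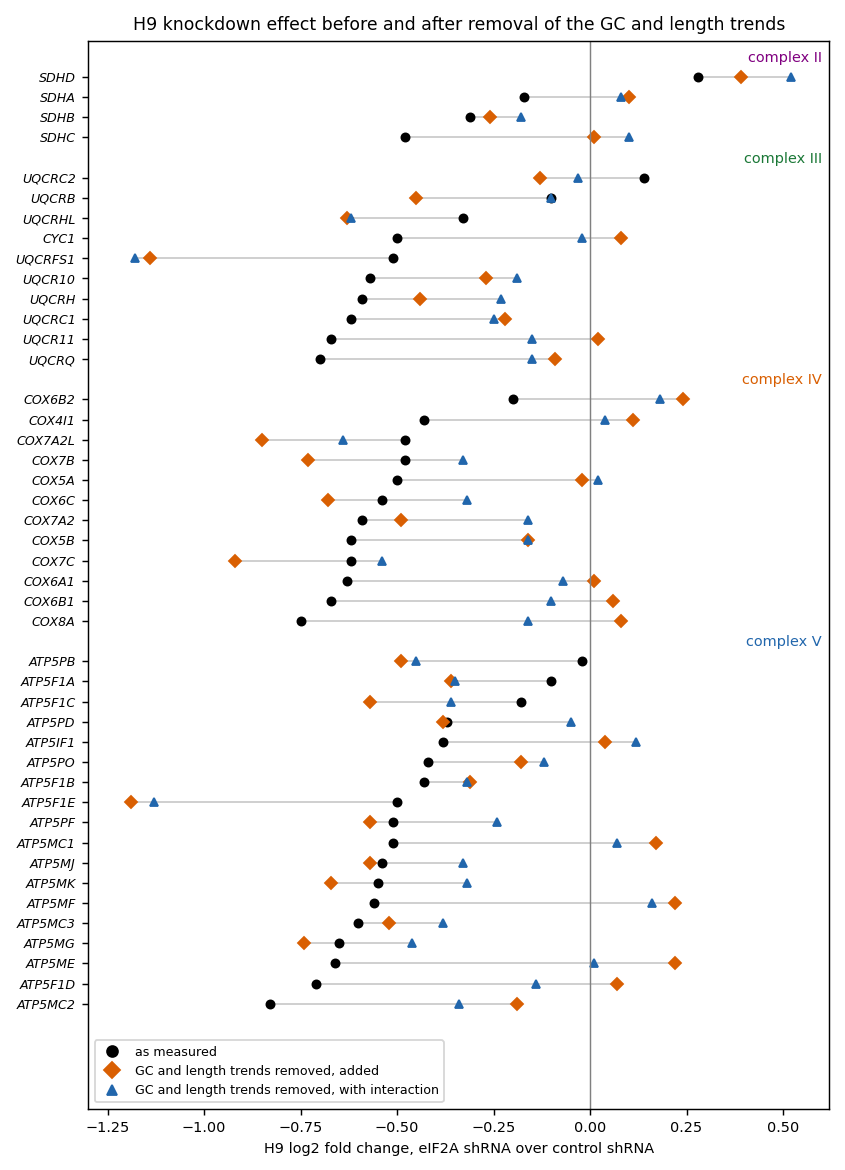
Log2 fold change of H9 eIF2A shRNA over control shRNA (horizontal axis) for each kept gene as measured and with the GC and length trends of all genes removed in 2 ways. COX7C (-0.62, -0.92 and -0.54) and ATP5MG (-0.65, -0.74 and -0.46) stay left of 0 in all fits, while CYC1 (-0.50, 0.08 and -0.02) and ATP5ME (-0.66, 0.22 and 0.01) move to near or right of 0.

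The subunit transcripts are short: the median length was 734 nt for the 44 genes and 2564 nt for all genes, and the median GC content was 49.2% for the 44 genes and 50.7% for all genes. Under 600 nt, the median H9 log2 fold change was -0.58 over the 12 subunit genes and -0.53 over all 185 genes in that class. Between 600 and 1000 nt the medians were -0.56 for the subunit genes and -0.42 for all genes. Below 45% GC, the 10 subunit genes had a median of -0.49, while all 4394 genes in that class had 0.86. At 55% GC and above, the 9 subunit genes had a median of -0.67 and all genes -0.36. Among the 44 genes Spearman's rho of the H9 fold change was -0.38 for GC content and 0.46 for length, and 0.57 for GC content with the joint trend removed. With the trends added rather than joint, rho with GC content was 0.83. Over all genes it was -0.02 with the trends added and -0.03 with the joint trend. The fits thus removed the relation with GC content over all genes. Among the subunit genes they turned its sign and made it stronger. These correlations are across genes of the same libraries, which are not independent replicates.

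**Figure D5:**
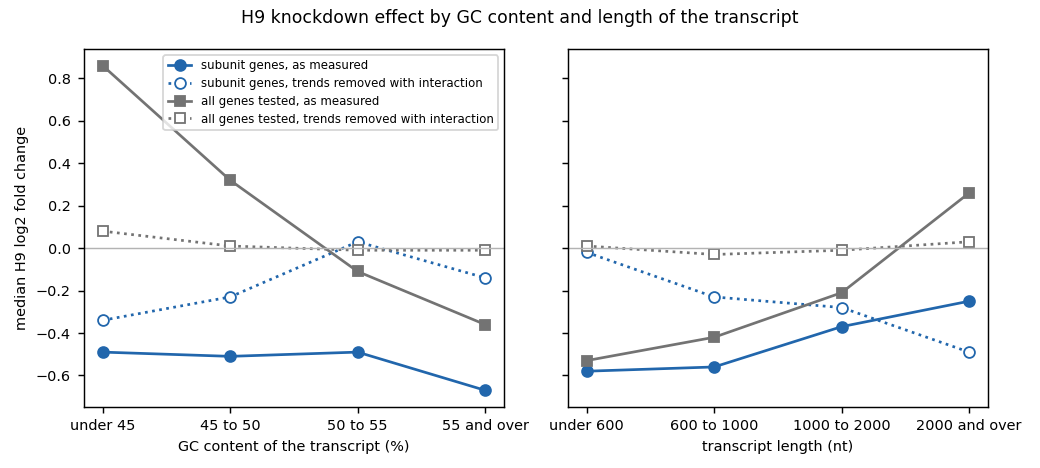
Median H9 log2 fold change by class of transcript GC content (%) and length (nt) for the subunit genes and for all genes tested, as measured (solid) and with the joint trend removed (dotted). Below 45% GC the subunit genes lie at -0.49 where all genes lie at 0.86, while under 600 nt the subunit genes lie at -0.58 and all genes at -0.53.

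The knockdown effect differed between the lines for most of the genes. The difference of log2 fold changes, H9 minus HEK293T, was below 0 and passed for 35 of the 44 genes and above 0 for 1, where 27% of all genes tested were lower and 31.1% higher. Its median was -0.56 over the 44 genes and 0.05 over all genes. The difference with the trends removed passed below 0 for 24 genes and above 0 for 7, with a median of -0.23. Of all 14559 genes tested, 3179 were lower and 3005 higher in that fit, with a median of 0.03. With interaction it passed below 0 for 22 of the 44 genes and above 0 for 5, with a median of -0.17. Of all genes tested, 2968 were then lower and 2898 higher. The largest differences were those of COX6C (-0.93 ± 0.12 SE, adjusted p = 8.6e-05), UQCRH (-0.93 ± 0.049 SE, adjusted p = 3.8e-17) and SDHC (-0.84 ± 0.16 SE, adjusted p = 0.0068). COX7C (-0.77 ± 0.045 SE, adjusted p = 5.0e-16) and COX6B1 (-0.76 ± 0.051 SE, adjusted p = 1.5e-14) followed. With the trends removed COX6C (-0.95 and -0.54), UQCRH (-0.67 and -0.43) and COX7C (-0.96 and -0.51) still passed, SDHC (-0.26 and -0.18) did not, and COX6B1 (0.01 and -0.18) passed only with interaction. The gene with a difference above 0 was UQCRC2 (0.18 ± 0.062 SE, adjusted p = 0.012), which did not pass with the trends removed (0.00 and 0.12). A total of 10 genes rose in HEK293T and fell in H9: UQCRH, COX6B1, COX6C, COX7A2L, COX7C, ATP5F1A, ATP5MG, ATP5PD, ATP5PF and ATP5PO. Another 6 fell in both lines, and 22 fell in H9 without passing in HEK293T. Cell line, arsenite and the means of knockdown differ together between these comparisons and cannot be told apart.

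Levels without eIF2A knockdown were compared between H9 control shRNA and HEK293T arsenite control siRNA. Cell line, arsenite and the kind of control (shRNA or siRNA) differ together here and cannot be told apart. Of the 44 genes, 17 were higher in H9 and 22 lower, where 42.3% of all genes tested were higher and 41.2% lower. With upper-quartile scaling the split was 12 higher and 25 lower. It was 19 higher and 21 lower with the trends removed, where 6282 of all 14559 genes tested were higher and 5942 lower. In complex IV 9 of 12 genes were higher in H9 (7 with the trends removed and 9 with interaction). In complex II SDHA and SDHB were lower in H9. SDHB was at 75.1 and 73.9 CPM in H9 controls, against 226 and 256 CPM in HEK293T controls (-1.70 ± 0.048 SE, adjusted p = 9.9e-23). COX7B was at 113 and 119 CPM in H9 controls, against 278 and 337 CPM in HEK293T controls (-1.41 ± 0.1 SE, adjusted p = 4.7e-05). ATP5F1A was at 723 and 729 CPM in H9 controls, against 399 and 392 CPM in HEK293T controls (0.88 ± 0.031 SE, adjusted p = 2.6e-24). The groups did not overlap for these genes. The c-ring genes differed in direction as measured, with ATP5MC2 higher in H9 (0.37 ± 0.033 SE, adjusted p = 1.9e-12) and ATP5MC1 lower (-0.48 ± 0.038 SE, adjusted p = 4.3e-14). Values of the c-ring genes ranged from -0.64 to 0.07 with the trends removed and from -0.60 to 0.18 with interaction.

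Genes that work with the complexes were counted in the same way, and their counts stand beside the shares of all genes tested: 34.3% fell and 37% rose in H9, and 14.7% fell and 14.1% rose in HEK293T. For these lists and those that follow, the H9 shares with the trends removed were 25.7% and 24.2% (23.8% and 23.5% with interaction). In HEK293T they were 13.5% and 14%, and with interaction 2003 of the 14559 genes fell and 1968 rose. Of 44 assembly factors of complexes II to V, 27 fell and 6 rose in H9, and 8 fell and 15 rose in HEK293T. COX16, which helps to build the COX2 copper site, was at 22.8 and 22.6 CPM in H9 eIF2A shRNA libraries, against 31.7 and 34.6 CPM in controls (-0.54 ± 0.072 SE, adjusted p = 2.8e-08), and at -1.19 and -1.10 with the trends removed. It moved the other way in HEK293T, at 37.7 and 38.3 CPM with eIF2A siRNA, against 27.5 and 23.3 CPM with control siRNA (0.59 ± 0.065 SE, adjusted p = 8.6e-09). LRPPRC, which stabilises mitochondrial mRNAs, had the largest rise of this list's called genes in H9, at 87.7 and 82.4 CPM with eIF2A shRNA, against 32.5 and 27.4 CPM in controls (1.50 ± 0.061 SE, adjusted p = 7.5e-21), and remained higher with the trends removed (1.04 and 1.08). The latter values rest on a length of 1848 nt, while the transcript linked to the RefSeq entry of LRPPRC has 6335 nt. In HEK293T LRPPRC fell, at 20.7 and 19.8 CPM with eIF2A siRNA, against 26.2 and 24.3 CPM with control siRNA (-0.31 ± 0.072 SE, adjusted p = 0.0011). SDHAF4, an assembly factor of complex II, fell in both lines (-0.64 in H9 and -0.38 in HEK293T), and so did COA4 of complex IV, which had the largest fall among the list's called genes in H9 (-0.74 in H9 and -0.23 in HEK293T). In H9 SDHAF4 was at -1.01 and -0.83 and COA4 at -0.45 and -0.41 with the trends removed. With the trends removed, 20 of these genes fell and 6 rose in H9 (21 and 6 with interaction), and 9 fell and 8 rose in HEK293T (8 and 8 with interaction).

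Of 37 subunit genes of complex I, the other entry point of electrons, 32 fell and 3 rose in H9, and 8 fell and 15 rose in HEK293T. NDUFS1 rose in H9 (0.76 ± 0.06 SE, adjusted p = 1.6e-13), by less with the trends removed (0.18 in both fits). Its length was taken as 2394 nt, while the transcript linked to its RefSeq entry has 11819 nt. In HEK293T NDUFB3 had the largest called rise (0.48, and 0.38 and 0.28 with the trends removed) and NDUFB9 the largest called fall (-0.32, and -0.39 and -0.38). Once the trends were removed, 18 complex I genes fell and 10 rose in H9 (15 and 8 with interaction), and 11 fell and 10 rose in HEK293T (12 and 10 with interaction). Of 17 citric acid cycle enzymes, 10 fell and 5 rose in H9, and 4 fell and 2 rose in HEK293T. Of these enzymes, 10 fell and 3 rose in H9 with the trends removed (9 and 5 with interaction), and 5 fell and 3 rose in HEK293T (7 and 3 with interaction). SUCLA2, a subunit of succinyl-CoA ligase, rose in H9 (1.06, and 0.35 and 0.39 with the trends removed), and FH, fumarase, rose in HEK293T (0.25, and 0.17 and 0.15). Of 10 further parts and carriers, such as cytochrome c, the adenine nucleotide carriers and crista proteins, 6 fell and 2 rose in H9, and 1 fell and 5 rose in HEK293T. MICOS10, a crista junction protein, was at 44.3 and 44.5 CPM in H9 eIF2A shRNA libraries, against 62.0 and 63.0 CPM in controls (-0.49 ± 0.055 SE, adjusted p = 8.0e-10), while OPA1, which fuses inner membranes, rose (1.41 ± 0.095 SE, adjusted p = 3.2e-15). MICOS10, with the trends removed, was at -0.88 and -0.90 and OPA1 at 0.30 and 0.25. FDX2, a mitochondrial ferredoxin, had the largest called fall of this list in H9 (-0.51) as measured, but passed as higher with the trends removed (0.23) and did not pass with interaction (0.05).

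Of 16 transcriptional regulators of respiratory genes, 8 rose and 4 fell in H9, and 2 rose and 7 fell in HEK293T. With the trends removed 4 rose and 5 fell in H9 (5 and 4 with interaction) with an H9 median of -0.04, where it was 0.32 as measured, and 2 rose and 5 fell in HEK293T (2 and 4 with interaction). POLRMT, the mitochondrial RNA polymerase, had the largest called fall in H9 (-0.74, and -0.52 and -0.36 with the trends removed), and TFB2M, its partner in initiation, the largest called rise in HEK293T (0.58, and 0.51 and 0.49). NRF1 was at 36.6 and 33.2 CPM in H9 eIF2A shRNA libraries, against 42.3 and 42.4 CPM in controls (-0.28 ± 0.06 SE, adjusted p = 1.1e-04), and remained lower with the trends removed (-0.52 in both fits). GABPA, the ETS factor that binds many of these promoters, was at 5.10 and 7.51 CPM with eIF2A shRNA, against 2.28 and 1.97 CPM in controls (1.55 ± 0.21 SE, adjusted p = 1.5e-07), and at 0.53 and 0.50 with the trends removed. YY1 rose as measured (0.54 ± 0.053 SE, adjusted p = 5.2e-11) and was at -0.02 and -0.05 with the trends removed. GABPA lies opposite ATP5PF and overlaps its exons, and reads of the pair cannot be told apart if the counting ignored strand. Of the 8 genes that hold the NRF1 motif, ATP5F1C, ATP5MC2, ATP5ME, ATP5PF, COX5B, COX6A1 and SDHB fell in H9 as measured and SDHD rose. Of all 44 kept genes 38 fell, and of all genes tested 34.3% fell and 37% rose. With the trends removed, ATP5ME passed as higher in H9 (0.22) and COX6A1 did not pass (0.01). ATP5F1C, ATP5MC2, ATP5PF, COX5B and SDHB fell in H9 in all 3 fits. In HEK293T the same 8 genes gave 2 rises (SDHD and ATP5PF) and 2 falls (ATP5F1C and COX6A1), beside 14.1% and 14.7% of all genes, and neither rise passed with the trends removed. NRF1 and YY1 were named because their motifs were searched, after their values had been seen.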

How the data were processed

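Per the labels' protocols, TRIzol RNA went into a stranded kit for polyadenylated transcripts; the submitters' processing notes name cutadapt, STAR 2.5.2b and hg19. The authors deposited unnormalized counts for each RefSeq accession. No source used here gives the counting program, its strand setting or its annotation. Of 19305 accessions, 18888 were named from a RefSeq gene table and 225 from GENCODE; 192 had no name. The 5 special counters were left out of library sizes and tests: reads without a feature made up 14.95 to 20.84% and multiply aligned reads 4.11 to 4.54% of the reads listed. Of the 44 kept genes, 28 have pseudogenes named after them and 15 overlap another coding gene's exons in GENCODE, so their counts are less certain.

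The test was that of edgeR 4.0.16 (R 4.3.3): filterByExpr, TMM factors, 4 group means over all 8 libraries (4 residual degrees of freedom) and a robust quasi-likelihood F test, two-sided, adjusted by Benjamini-Hochberg over all genes tested. SE is the log2 fold change divided by the square root of F. Trends with transcript GC content and length (medians over GENCODE coding transcripts) were removed per library by smooth offsets (mgcv 1.9.3), added or with interaction. The interaction, and lengths of linked transcripts, were chosen after the data had been seen. Alternatives also included DESeq2 1.42.0, limma-voom 3.58.1, other scalings and filters, the set number as a block, a threshold of 0.01 and each library left out. The script was tested on simulated data. Members, lists and motifs were chosen with earlier results of these data known. The genes given with full values were the 3 largest called rises and falls per complex and line, all SDH genes, isoform groups, and the largest rise and fall of each other list, with other kept genes beside them. Some genes this rule names are not reported here.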

Additional observations from a re-analysis of the deposited data

Results flagged for a closer look

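The knockdown effect differed between H9 and HEK293T, by the test of the difference itself (edgeR's quasi-likelihood test, adjusted p under 0.05), for 36 of the 44 subunit genes. Of all genes tested, 27% had a difference below 0 that passed and 31.1% had one above 0. The values below are differences of log2 fold changes, H9 minus HEK293T. In complex II they were -0.33 for SDHB and -0.84 for SDHC. In complex III they were -0.47 for CYC1, -0.56 for UQCR10, -0.70 for UQCR11, -0.49 for UQCRC1, 0.18 for UQCRC2, -0.53 for UQCRFS1, -0.93 for UQCRH and -0.57 for UQCRQ. In complex IV they were -0.43 for COX4I1, -0.55 for COX5A, -0.68 for COX5B, -0.40 for COX6A1, -0.76 for COX6B1, -0.93 for COX6C, -0.64 for COX7A2, -0.66 for COX7A2L, -0.77 for COX7C and -0.71 for COX8A. In the F1 head of complex V they were -0.23 for ATP5F1A, -0.47 for ATP5F1B, -0.68 for ATP5F1D and -0.50 for ATP5F1E. In its peripheral stalk they were -0.19 for ATP5PB, -0.67 for ATP5PD, -0.67 for ATP5PF and -0.68 for ATP5PO. In its membrane part they were -0.41 for ATP5MC1, -0.75 for ATP5MC2, -0.63 for ATP5MC3, -0.69 for ATP5ME, -0.46 for ATP5MF, -0.76 for ATP5MG, -0.69 for ATP5MJ and -0.56 for ATP5MK. UQCRC2 alone among these had a difference above 0. Line, arsenite and the means of knockdown cannot be told apart here.

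Reads without a counted feature, which no comparison uses, made up 20.84 and 20.63% in the H9 eIF2A shRNA libraries, above the 18.84 and 18.39% in the H9 controls. Their part in the results was not tested.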

How the results depend on the processing

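The count of subunit genes that fell in H9 (38) ranged from 26 to 40 over the alternatives and from 35 to 39 with 1 library left out. The other counts moved more. With the GC and length trends removed, 5 genes rose and 12 fell in HEK293T, 7 rose in H9, and the difference between the lines was above 0 for 7. With the trends removed and the replicate block, 4 rose and 10 fell in HEK293T, 6 rose in H9, and the difference was above 0 for 7 and below 0 for 23. With linked transcript lengths, 7 rose and 11 fell in HEK293T, 5 rose in H9, and the difference was above 0 for 8. With interaction, 4 rose and 11 fell in HEK293T, and the difference was above 0 for 5 and below 0 for 22. With DESeq2's size factors or DESeq2, 0 rose in H9 and 0 differences were above 0; at a threshold of 0.01, 3 fell in HEK293T and 0 differences were above 0. With 1 library left out, 8 to 20 rose and 2 to 10 fell in HEK293T, 1 to 2 rose in H9, and 0 to 1 differences were above 0. The cause was not tested.

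Signs turned mainly with the trends removed (in brackets, with the replicate block as well). In H9 the log2 fold changes were then 0.0718 (0.0709) for ATP5F1D, 0.0448 (0.0454) for ATP5IF1, 0.1746 (0.1742) for ATP5MC1, 0.2151 (0.2152) for ATP5ME, 0.2153 (0.2152) for ATP5MF, 0.1146 (0.1146) for COX4I1, 0.0063 (0.0062) for COX6A1, 0.0615 (0.0615) for COX6B1, 0.0767 (0.0767) for COX8A, 0.0840 (0.0839) for CYC1, 0.0997 (0.1001) for SDHA, 0.0060 (0.0061) for SDHC, 0.0159 (0.0160) for UQCR11 and -0.1333 (-0.1327) for UQCRC2. UQCRC2 was also at -0.0205 with DESeq2's size factors and -0.0204 with DESeq2. ATP5MG in HEK293T was at -0.0099 (-0.0102). The difference between the lines was 0.0082 (0.0084) for COX6B1, and -0.0006 for UQCRC2 with the block.

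The labels do not say what the set numbers mean. Deviations of same-numbered libraries correlated at -0.081 in HEK293T and -0.027 in H9 over 9393 genes. These values show no common shift by set, but cannot tell whether the libraries were prepared as pairs. With the replicate block alone, 13 rose and 5 fell in HEK293T, 2 rose and 38 fell in H9, and the difference was below 0 for 37. With 2 libraries a group, each left-out fit leaves 1 library that is assumed to vary like the other groups. Counting depth limits UQCRHL and COX6B2, which had 14 to 79 counts per library.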
